A study of Homo sapiens with 6 samples.

Results

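Cancer-testis antigens are proteins made in germ cells of the testis, silent in most adult tissues and made again in many tumours, multiple myeloma among them. The genes described here belong to 8 X-linked families of such antigens: MAGEA, MAGEB, MAGEC, GAGE, PAGE, XAGE, SSX and CTAG. They were chosen as the protein-coding genes whose symbol begins with one of these names followed by a digit, a rule that found 54 of the 57820 gene rows in the deposited tables. One of the 54, SSX2IP, lies on chromosome 1. It encodes a centrosome protein that is a partner of the SSX2 protein and is not itself an antigen of these families, so it is given apart, at 29.03 ± 3.32 counts scaled to library size (CPM, SD, n = 3) in control and 32.2 ± 2.34 with MYC (log2 fold change 0.15 ± 0.09, SE, adjusted p = 0.189, edgeR). The remaining 53 are 10 MAGEA, 11 MAGEB, 3 MAGEC, 11 GAGE, 6 PAGE, 5 XAGE, 5 SSX and 2 CTAG genes, all on X. No row of the tables was matched to CTAG1A, MAGEA2, MAGEA9B, SSX4 or SSX4B, which are near-identical to other members or to each other, and these are not analysed here.

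RNA was sequenced from U266, an established human line of malignant plasma cells from multiple myeloma, in 6 libraries. Of these, 3 were labelled control and 3 came from U266 transduced with a lentivirus that carries C-MYC behind the EF1A promoter, which is active in most cell types. No other treatment is recorded, and all 6 share the same culture medium. The labels do not say whether the control cells carry an empty vector, whether the transduced line is a clone or a pool, or whether the samples numbered 1 to 3 came from separate cultures, so the p-values measure the spread between these samples, which may be technical.

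The MAGE proteins share a domain that binds RING-type ubiquitin ligases and steers them to new substrates, as MAGEA3 and MAGEA6 do with TRIM28. The GAGE, PAGE and XAGE proteins are small, acidic and largely unfolded, SSX proteins are repressors that bind chromatin and are known from the SS18-SSX fusions of synovial sarcoma, and CTAG1B encodes NY-ESO-1, a target of T cell therapy. Silencing of these genes outside the germline is known to rest on methylation of CpG sites in their promoters and on repressive chromatin, and ETS and SP factors are known activators of MAGEA promoters. MYC, with its partner MAX, binds the E-box CACGTG.

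The promoters shown are those of the 2 members with the largest increases, PAGE1 and GAGE12J, and of 3 related PAGE genes that were among the most abundant members. They were chosen after the values had been seen. Each window runs from 250 bases before to 50 after the annotated start in RefSeq on GRCh38.p14, read 5′ to 3′ on the gene's strand, with CACGTG in capitals. PAGE1 lies at chrX:49695935-49696234 on the minus strand, and the others lie on the plus strand, GAGE12J at chrX:49321787-49322086, PAGE5 at chrX:55220096-55220395, PAGE2B at chrX:55074780-55075079 and PAGE2 at chrX:55088768-55089067.
PAGE1: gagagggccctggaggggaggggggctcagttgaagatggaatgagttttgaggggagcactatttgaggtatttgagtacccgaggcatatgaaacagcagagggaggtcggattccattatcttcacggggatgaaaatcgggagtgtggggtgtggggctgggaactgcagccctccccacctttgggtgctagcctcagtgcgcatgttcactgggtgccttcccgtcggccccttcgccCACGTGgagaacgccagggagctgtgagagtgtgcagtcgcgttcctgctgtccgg
GAGE12J: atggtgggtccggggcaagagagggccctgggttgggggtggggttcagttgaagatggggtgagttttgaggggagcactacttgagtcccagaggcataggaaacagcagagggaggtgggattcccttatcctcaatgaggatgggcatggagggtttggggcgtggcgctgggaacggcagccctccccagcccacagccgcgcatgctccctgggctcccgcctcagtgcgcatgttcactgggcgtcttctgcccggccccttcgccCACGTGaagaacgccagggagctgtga
PAGE5: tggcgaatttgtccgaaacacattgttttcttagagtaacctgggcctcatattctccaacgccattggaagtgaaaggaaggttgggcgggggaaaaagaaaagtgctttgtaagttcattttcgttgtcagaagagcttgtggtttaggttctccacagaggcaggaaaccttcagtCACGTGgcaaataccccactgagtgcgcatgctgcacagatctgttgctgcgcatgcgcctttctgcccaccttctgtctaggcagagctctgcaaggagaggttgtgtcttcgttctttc
PAGE2B: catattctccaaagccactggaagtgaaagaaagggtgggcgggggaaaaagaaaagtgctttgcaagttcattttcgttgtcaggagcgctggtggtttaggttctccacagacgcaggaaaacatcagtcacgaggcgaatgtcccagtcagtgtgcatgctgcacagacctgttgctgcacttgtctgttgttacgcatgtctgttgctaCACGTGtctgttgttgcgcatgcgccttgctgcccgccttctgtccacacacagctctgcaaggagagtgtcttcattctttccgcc
PAGE2: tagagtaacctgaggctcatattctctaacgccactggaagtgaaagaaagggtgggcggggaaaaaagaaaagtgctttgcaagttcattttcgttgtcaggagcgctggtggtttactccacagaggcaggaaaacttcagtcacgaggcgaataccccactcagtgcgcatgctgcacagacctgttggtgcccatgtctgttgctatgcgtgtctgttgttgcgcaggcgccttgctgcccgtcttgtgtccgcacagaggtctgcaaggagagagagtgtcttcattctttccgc

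A window was found for 47 of the 53 members, CTAG1B, CTAG2, MAGEA1 and MAGEA10 being among those without one. CACGTG, which reads the same on both strands, occurred in 16 of these 47 members, or 34.0%, against 10.98% of the 14960 protein-coding genes with a window of the same length. The 16 were all 11 GAGE genes, PAGE1, PAGE2B, PAGE4, PAGE5 and XAGE3. None of the 21 MAGE genes with a window held it. The GAGE windows are near copies of each other, so they do not count as separate occurrences. Without them it was 5 of 36 members, or 13.9%. In PAGE1 the motif ended just before the start, at bases 245 to 250 counted from 1 at the 5′ end of the window, in PAGE2B it lay at bases 214 to 219, in PAGE5 at 180 to 185, and in GAGE12J past the start, at 274 to 279. PAGE2 and PAGE2B are 93.2% identical over 279 aligned bases of their windows. In the aligned place PAGE2 differed by C214T and A215G, with PAGE2B as the reference and positions counted in its window, and it held no CACGTG. The ETS motif CGGAAG, searched on both strands, was found in 7 members. It lay in 9 of the members' 62 windows, or 14.5%, against 19.5% of all 35116 windows and 23.98% of those of protein-coding genes. The search found the TATA motif TATAAA in no member and in 11.5% of all windows, and the SP site GGGCGG in 27.4% of the members' windows and in 45.0% of all windows, on either strand. CACGTG overlapped another of these motifs in 0 of the members' windows. A match of letters is a description and no evidence that a factor binds there.

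In the 3 control libraries MYC stood at 3.91, 4.16 and 4.51 CPM and in the 3 MYC libraries at 105, 110 and 92.1 CPM, a 24.3-fold difference with no overlap (log2 fold change 4.60 ± 0.10, edgeR adjusted p = 9.71e-08). Reads from the vector and from the cell's own gene cannot be told apart in these tables. The libraries held 27139978 to 158667309 expected counts, a 5.85-fold range, with both the smallest and the largest in the MYC group. Of the 23 germ cell markers, DAZL, PRM1, PRM2, TNP1, TNP2, NANOS2 and SPO11 were at 0 counts in all 6 libraries. Others on the list were detected, with TDRD5 and SOHLH2 the most abundant. TDRD5 stood at 30.1 ± 1.6 CPM (SD, n = 3) in the controls and 25.95 ± 0.504 with MYC. SOHLH2 stood at 23.0 ± 0.365 CPM in the controls and 35.8 ± 0.284 with MYC. All 14 plasma cell markers were detected, and their summed level ran from 4802 to 5184 CPM in the controls and from 3553 to 3967 CPM with MYC. These sums are not corrected for the GC content of transcripts, which is treated below. With that correction SDC1 fell 1.17-fold rather than 2.25-fold, and 10 of the 14 were called lower and 2 higher. These are 71.4% and 14.3%, against 28.9% and 29.6% of all genes tested. The 9 T and NK cell markers summed to 9.85 to 12.3 CPM in the controls and 16.9 to 18.9 CPM with MYC, the 10 myeloid markers to 2.45 to 3.39 and 2.92 to 3.44 CPM, and the 11 stromal and epithelial markers to 14 to 16.6 and 16.2 to 17.9 CPM. The part of other cells in the results was not tested.

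Control U266 cells already made many of these transcripts in abundance. The 53 genes together took 0.244% to 0.277% of all counts, and 3746 to 4250 TPM (a share of all transcripts, corrected for gene length) in the 6 libraries. By control mean TPM the order began with MAGEA4 at 574 ± 14.8 (SD, n = 3), PAGE2 at 541 ± 30.1 and PAGE2B at 500.2 ± 8.72. PAGE5 followed at 453 ± 17.3, CTAG1B at 300.4 ± 25.9 and CTAG2 at 262 ± 5.16. MAGEA1 at 236 ± 4.63 and MAGEA3 at 233 ± 8.95 came next and did not differ beyond their spread. MAGEA4 ranked 206th of the 17679 genes tested. In all, 11 members reached 100 TPM in control and 18 reached 10 TPM.

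Others were silent or nearly so. Of the 53 members, 38 had at least 3 expected counts in at least 1 library, 15 stayed under 3 in each library, and 9 of those were at 0 in all 6, namely GAGE10, GAGE12B, GAGE12C, GAGE12D, GAGE12F, GAGE12G, MAGEB5, MAGEB6B and SSX3. A floor of 3 counts corresponds to 0.0189 CPM in the deepest and 0.111 CPM in the shallowest library, for counting error only. The filter on low counts left 30 members for the test. In bulk RNA, a change in the share of cells that make a transcript and a change in the amount per cell cannot be told apart.

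**Figure D1:**
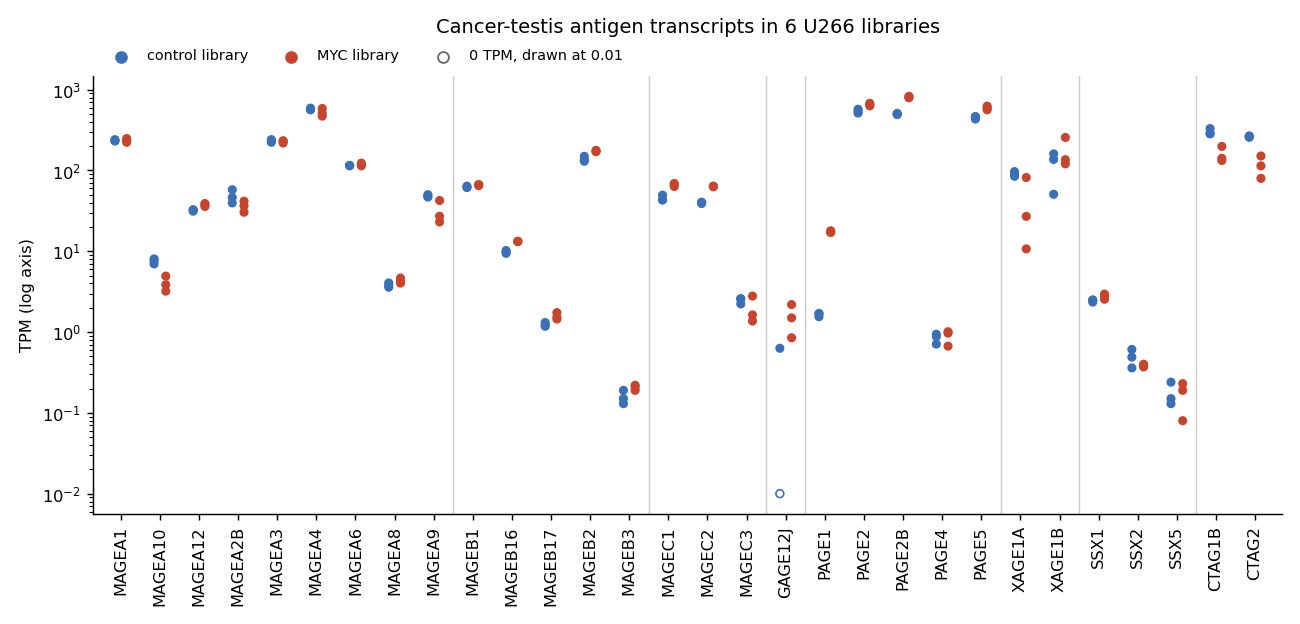
Deposited TPM (log axis) of the 30 tested members in each of the 6 libraries, grouped by family, with blue points for control and red points for MYC libraries. MAGEA4, the PAGE2, PAGE2B and PAGE5 genes and the CTAG pair lead the control libraries, PAGE1 stands about a log unit higher in the 3 MYC libraries, and the CTAG genes stand lower in them.

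With MYC the families did not move as a block. Of the 30 tested members, 10 rose, 6 fell and 14 did not pass the test (edgeR quasi-likelihood test, Benjamini-Hochberg adjusted p under 0.05 over all 17679 genes). Across all genes tested, 28.8% were called higher and 32.1% lower, against 33.3% and 20.0% of the members, so the share of increases was near the background. Among the 443 other X-linked protein-coding genes tested, 40.0% were called higher and 28.9% lower. Groups did not overlap in CPM for 17 of the 30 members, against 67.1% of all genes tested. At least 2-fold increases were called for PAGE1 and GAGE12J (5.62% of all genes) and at least 2-fold decreases for CTAG2 (12.4% of all genes). The median log2 fold change was 0.18 over the 30 members and -0.0201 over all genes tested.

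Fold changes in these libraries followed the GC content of the transcripts, which bears on several members. The median log2 fold change of all genes tested ran from 0.254 for transcripts of at most 42% GC to -1.77 for those above 66%, and genes above 62% GC took 3.82% to 4.14% of the counts in control and 1.34% to 1.89% with MYC. The transcripts of the 30 tested members ranged from 44.2% GC in PAGE2B to 64.9% in CTAG1B. A second fit took out the trend with GC in each library before the test, called the GC offset below. With it 14 members were called higher and 2 lower, where 29.6% of all genes were called higher and 28.9% lower, and 8 of the 10 increases and 2 of the 6 decreases stood in both fits. Whether the trend with GC comes from the cells or from the preparation of the libraries was not tested.

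**Figure D2:**
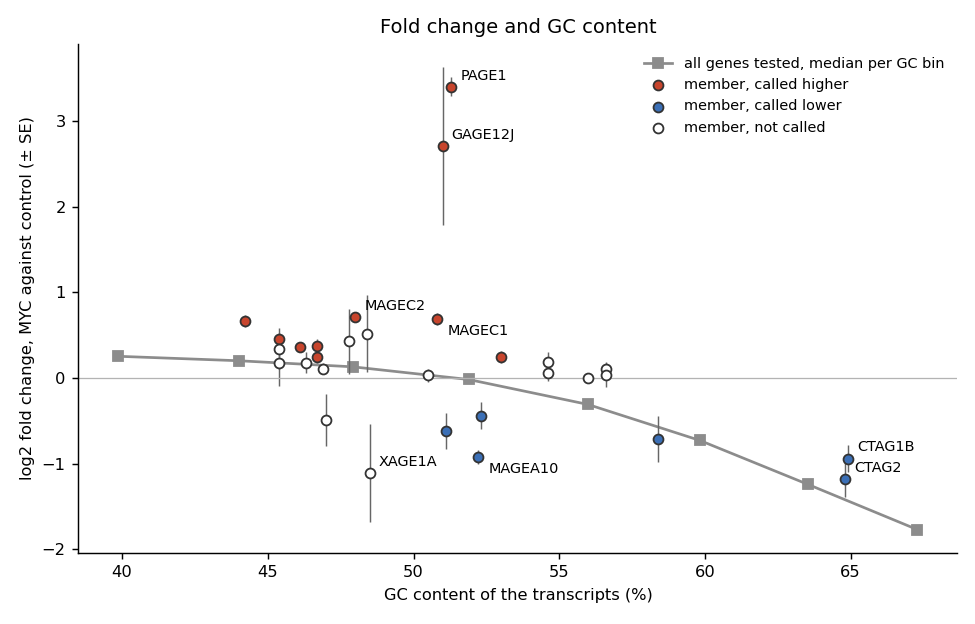
log2 fold change of MYC against control (± SE) of the 30 tested members against the GC content of their transcripts in percent, over the median of all genes tested in 8 GC bins (grey squares, each at its bin's median GC). PAGE1, GAGE12J, MAGEC1 and MAGEC2 lie above the grey line, MAGEA10 and XAGE1A below it, and CTAG1B and CTAG2 below 0 but above the line.

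PAGE1, a small acidic protein of the prostate-associated antigen group, showed the largest change of all members. Its transcript stood at 0.576, 0.582 and 0.582 CPM in the 3 control libraries and at 6.17, 6.46 and 5.76 CPM in the 3 MYC libraries. Every MYC library was far above every control library, at a 10.6-fold difference (log2 fold change 3.40 ± 0.11, edgeR adjusted p = 3.28e-07, and 3.39 ± 0.10 with the GC offset). Increases of at least 10-fold were called for 1.09% of all genes tested. PAGE1 shared no stretch of 100 bases with a transcript of any other gene, and no near-identical copy of it was found. In length-corrected units it went from 1.65 ± 0.0839 to 17.4 ± 0.447 TPM, low beside PAGE2, PAGE2B and PAGE5. PAGE4, the next gene along X in the RefSeq table, did not pass the test, at 0.183 ± 0.0150 CPM in the controls and 0.193 ± 0.0377 with MYC (log2 fold change 0.18 ± 0.27, edgeR adjusted p = 0.575), and PAGE3 had at most 6 counts in any library.

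The 3 abundant PAGE genes rose together by smaller steps. PAGE2B stood at 106, 121 and 103 CPM in the controls and 173, 183 and 166 CPM with MYC, a 1.59-fold rise with no overlap (log2 fold change 0.67 ± 0.07, edgeR adjusted p = 0.000106). PAGE2 stood at 142, 149 and 127 CPM against 164, 171 and 164 CPM, with no overlap and a 1.19-fold rise (0.25 ± 0.07 on the log2 scale, edgeR adjusted p = 0.0104). PAGE5 stood at 114, 128 and 107 CPM against 152, 163 and 135 CPM, a 1.29-fold rise in which again no MYC library fell among the control libraries (0.37 ± 0.09, edgeR adjusted p = 0.00679). With the GC offset PAGE2B kept its call at 0.45 ± 0.08, while PAGE2 at 0.08 ± 0.06 and PAGE5 at 0.19 ± 0.09 were not called. PAGE2 was also not called without control library 3 (0.18, edgeR adjusted p = 0.0535).

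PAGE2 and PAGE2B encode near-identical proteins and their coding sequences differ at 13 of 333 bases, so 19.5% of the 100-base stretches of PAGE2 and 25.3% of those of PAGE2B occurred in other transcripts. Of the reads given to the pair, PAGE2 took 57.4%, 55.2% and 55.3% in control and 48.6%, 48.3% and 49.8% with MYC, so the 2 groups did not overlap. The pair summed rose 1.37-fold, from 249 ± 19.7 to 341 ± 12.6 CPM (log2 fold change 0.45 ± 0.07, edgeR adjusted p = 0.000617). The PAGE family as a whole went from 1497 ± 50.7 to 2078 ± 45.9 TPM, the largest family sum in both groups.

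Both abundant members of the MAGEC family also rose. MAGEC1, or CT7, is an antigen often found in myeloma cells, and MAGEC2 is a partner of TRIM28. MAGEC1 stood at 127, 119 and 111 CPM in the controls and 190, 203 and 181 CPM with MYC, a 1.61-fold rise with a wide gap between the groups (log2 fold change 0.69 ± 0.07, edgeR adjusted p = 6.34e-05). MAGEC2 stood at 53.2, 55.6 and 54.9 CPM against 92.9, 91.1 and 83.5 CPM, a 1.63-fold rise, again with no overlap (0.71 ± 0.06, edgeR adjusted p = 2.95e-05). With the GC offset the values were 0.65 ± 0.06 and 0.56 ± 0.05, both called. Neither gene shared a 100-base stretch with another transcript.

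MAGEC3, the third gene of this cluster, moved the other way at a low level. Its values were 1.91, 2.41 and 2.31 CPM in the controls and 1.44, 1.47 and 1.99 CPM with MYC, so that MYC library 3 lay above control library 1. The decrease was called at the threshold only just (log2 fold change -0.44 ± 0.16, edgeR adjusted p = 0.0433) and was not called with the GC offset (-0.40 ± 0.17) or without any 1 of control libraries 2 and 3 and MYC libraries 1 and 2 (adjusted p from 0.0857 to 0.184).

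**Figure D3:**
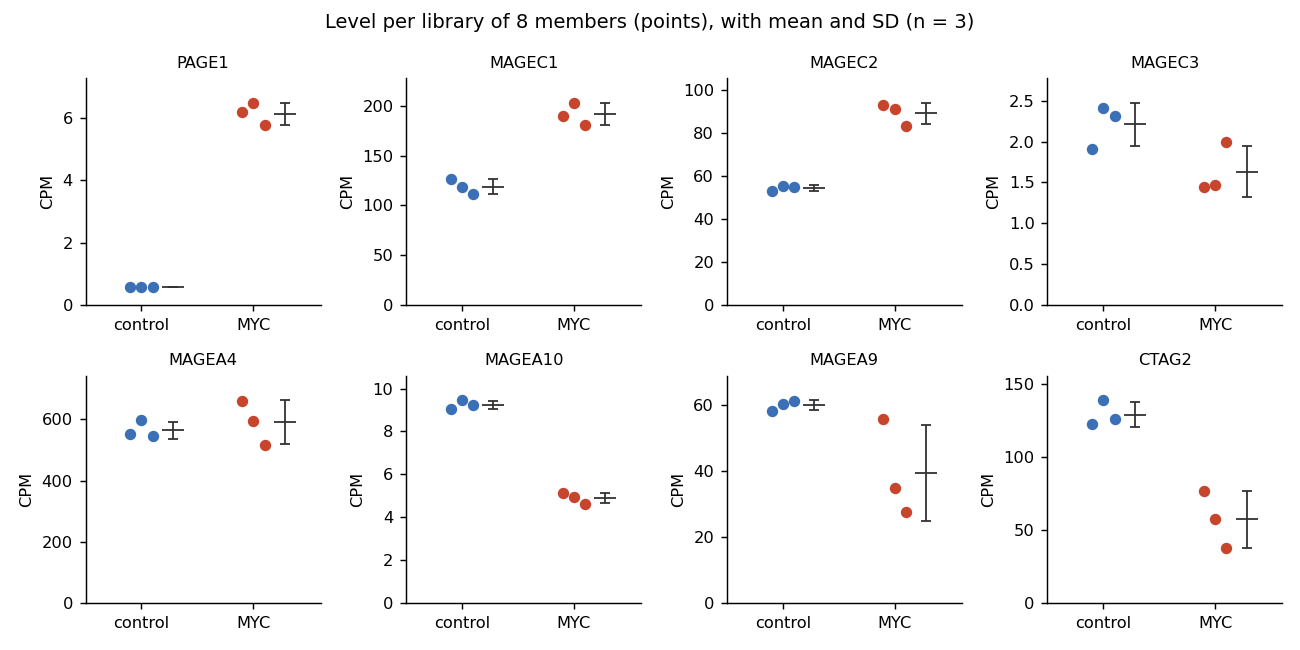
CPM per library (points) with the mean and SD (n = 3) of 8 members, each panel on its own linear axis from 0. PAGE1, MAGEC1 and MAGEC2 are higher and MAGEA10 and CTAG2 lower in every MYC library, the values of MAGEC3 and MAGEA4 overlap between the groups, and the 3 MYC libraries of MAGEA9 lie far apart, from 27.6 to 55.8 CPM.

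The MAGEA genes, whose member MAGEA4 had the highest control mean TPM, mostly did not pass the test. MAGEA4, targeted by T cell therapies in synovial sarcoma, stood at 551, 597 and 547 CPM in the controls and 660, 595 and 517 CPM with MYC, with overlapping groups (log2 fold change 0.06 ± 0.09, edgeR adjusted p = 0.569). MAGEA1 stood at 263, 278 and 274 against 304, 279 and 250 CPM, again overlapping (0.03 ± 0.08, edgeR adjusted p = 0.744). MAGEA3, MAGEA6 and MAGEA8 did not pass the test either, at 0.00, 0.11 and 0.19. With the GC offset MAGEA3 (0.32 ± 0.05), MAGEA6 (0.49 ± 0.04), MAGEA8 (0.39 ± 0.08) and MAGEA4 (0.26 ± 0.05) were called higher, and MAGEA1 was not (-0.03 ± 0.06). The family summed to 1298 ± 12.4 TPM in control and 1216 ± 89.4 with MYC.

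Of the 9 MAGEA genes tested, 1 rose and 3 fell, where 28.8% of all genes tested were called higher and 32.1% lower. MAGEA12 stood at 36.0, 37.4 and 36.9 CPM in the controls and 47.2, 44.8 and 39.9 CPM with MYC, a 1.19-fold rise without overlap (log2 fold change 0.25 ± 0.07, edgeR adjusted p = 0.0144, and 0.33 ± 0.04 with the GC offset). It was not called without control library 3 (adjusted p = 0.0560) or MYC library 2 (adjusted p = 0.0609). MAGEA10 stood at 9.06, 9.45 and 9.23 CPM in the controls and 5.14, 4.92 and 4.63 CPM with MYC, a 1.89-fold fall with tight groups far apart (-0.92 ± 0.08, edgeR adjusted p = 3.22e-05, and -0.89 ± 0.06 with the GC offset). It lies in the same stretch of X as MAGEA4, MAGEA3 and MAGEA2B in the RefSeq gene order.

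MAGEA9 stood at 58.3, 60.2 and 61.2 CPM in the controls and at 55.8, 34.8 and 27.6 CPM with MYC. The control libraries were close together while MYC library 1 lay just below them and MYC library 3 far below, so the fall rests on unequal libraries (log2 fold change -0.62 ± 0.21, edgeR adjusted p = 0.0315). It was not called without control library 1, 2 or 3 or without MYC library 2 (adjusted p from 0.0627 to 0.111). With DESeq2 on all 6 libraries MAGEA9 was not called either (-0.60, adjusted p = 0.107). Of its 100-base stretches, 89.7% also occur in MAGEA9B, to which no row was matched. MAGEA2B, 82.4% of whose stretches occur in other transcripts, chiefly MAGEA2, stood at 29.3, 34.9 and 46.5 CPM against 25.0, 29.2 and 13.5 CPM, the groups nearly touching (-0.71 ± 0.27, edgeR adjusted p = 0.0468). At 58.4% GC it went to -0.15 ± 0.22 with the GC offset (adjusted p = 0.581; 0.0241 to 0.581 over the alternatives that filter on expression), and it was not called without control library 2 (-0.76) or 3 (-0.51).

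MAGEA3 and MAGEA6 are another close pair. The stretch shown is the 80 bases of their coding sequences with the most differences, the first such. It covers bases 553 to 632, counted from the start codon in GENCODE 29. Even there few letters separate their reads. Capitals mark the 4 differing bases, which are G595A, C601T, G613A and G632A from MAGEA3 to MAGEA6.
MAGEA3: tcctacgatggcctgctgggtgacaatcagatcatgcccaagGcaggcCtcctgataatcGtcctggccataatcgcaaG
MAGEA6: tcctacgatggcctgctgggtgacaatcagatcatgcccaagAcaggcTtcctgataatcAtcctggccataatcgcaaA

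Over the whole coding sequence of 942 bases they differ at 18 bases and are 98.1% identical, and 34.9% of the 100-base stretches of MAGEA3 occur in other transcripts. The split of reads between them was steady, with MAGEA3 taking 65.5% to 67.9% in the 6 libraries. Summed, the pair stood at 402 ± 4.42 CPM in the controls and 413 ± 21.9 CPM with MYC (log2 fold change 0.04 ± 0.06, edgeR adjusted p = 0.589).

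In the XAGE1 pair the split was not steady. XAGE1A and XAGE1B have coding sequences of 243 bases without a difference, and all 100-base stretches of XAGE1A occur in another gene's transcripts. XAGE1A was given 26.3, 30.2 and 30.2 CPM in the controls and 8.93, 26.4 and 3.14 CPM with MYC, and XAGE1B 39.1, 53.5 and 13.7 against 40.7, 36.4 and 74.8 CPM. The share of XAGE1A within the pair ran from 36.1% to 68.7% in control and from 4.04% to 42% with MYC. Neither passed the test (log2 fold change -1.11 ± 0.57 and 0.52 ± 0.45, edgeR adjusted p = 0.123 and 0.342). XAGE1A was called lower without MYC library 2 (-2.34, adjusted p = 0.00174). Summed, the pair stood at 64.3 ± 19.9 and 63.5 ± 14.2 CPM, with no difference passing the test (-0.01 ± 0.23, edgeR adjusted p = 0.969). XAGE2, XAGE3 and XAGE5 had at most 9 counts in any library.

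**Figure D4:**
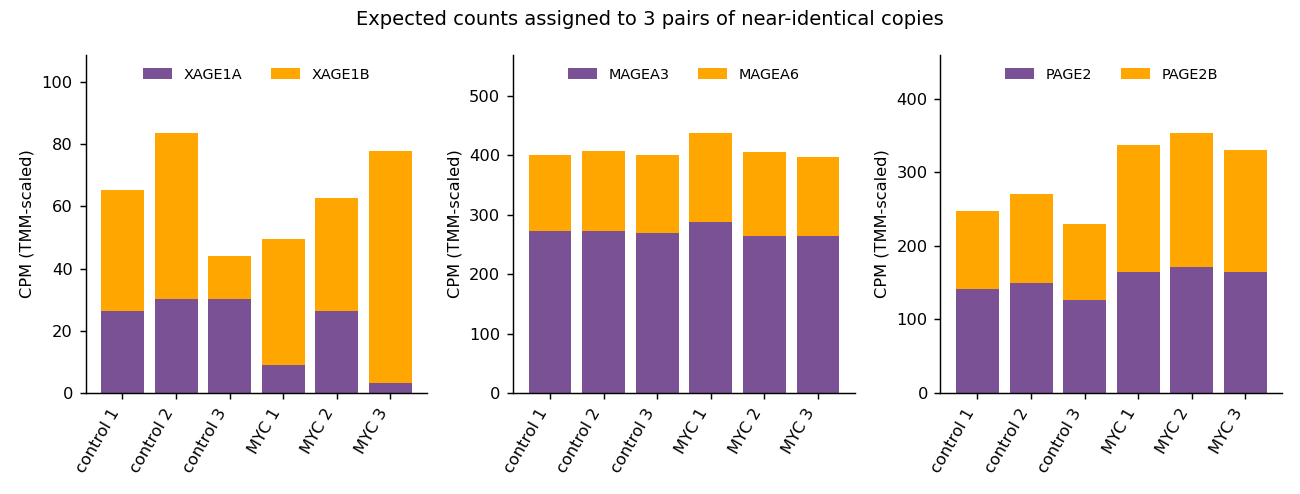
CPM assigned to the 2 genes of 3 near-identical pairs (stacked bars, 1 per library). The split of XAGE1A and XAGE1B differs widely between libraries of 1 group, that of MAGEA3 and MAGEA6 is steady at 65.5% to 67.9% MAGEA3, and PAGE2B takes the larger part of its pair in the 3 MYC libraries.

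The MAGEB genes, which lie on the short arm of X, rose where they were called. MAGEB2 stood at 157, 146 and 144 CPM in the controls and 199, 191 and 185 CPM with MYC, a 1.29-fold rise with no overlap (log2 fold change 0.36 ± 0.06, edgeR adjusted p = 0.000662). MAGEB16 stood at 11.3, 11.3 and 11.2 CPM against 16, 15.8 and 14.7 CPM, a 1.38-fold rise, likewise without overlap (0.46 ± 0.07, edgeR adjusted p = 0.000541). With the GC offset these were 0.17 ± 0.04 and 0.25 ± 0.06, both called. MAGEB1 at 76.3 ± 1.93 and 82.5 ± 5.53 CPM, MAGEB3 and MAGEB17 did not pass the test, with MAGEB1 called higher when MYC library 3 was left out (0.17) and MAGEB17 with the GC offset (0.42 ± 0.13). MAGEB10 fell under the filter, with 0, 3 and 6 counts in control and 4, 57 and 17 with MYC, and MAGEB4, MAGEB6 and MAGEB18 had at most 5 counts.

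GAGE transcripts were close to absent, and their change rests on few reads. GAGE12J was given 0, 13.5 and 0 expected counts in control and 15.0, 60.8 and 11.1 with MYC, or 0, 0.181 and 0 CPM against 0.567, 0.392 and 0.202 CPM. Only 1 of 3 control libraries had any, and it lay just below the lowest MYC library (log2 fold change 2.71 ± 0.92, edgeR adjusted p = 0.0302). The call was lost without control library 1 (2.30), control library 3 (1.82) or MYC library 2 (2.60), and with DESeq2 (2.68, adjusted p = 0.301; 0.00147 to 0.301 over the alternatives that filter on expression). Without control library 2 the other 2 control libraries are at 0, so the fitted 7.96 (adjusted p = 0.00147) depends on the prior count and gives no fold. Of the gene's sequence, 77.4% of the 100-base stretches occur in other GAGE transcripts. Summed over the 11 GAGE genes given here, counts were 0, 17.5 and 1 in control and 15.0, 68.8 and 11.1 with MYC (2.38 ± 0.87, edgeR adjusted p = 0.0422). In these sums the lowest MYC library stood at 0.202 CPM and control library 2 at 0.233 CPM, so they overlap. GAGE13 and GAGE2E are not among the 11, and 72.4% of the 100-base stretches of GAGE12J occur in GAGE13.

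The SSX genes were low and none passed the test. SSX1 stood at 2.03, 2.17 and 1.94 CPM in the controls and 2.61, 2.22 and 2.21 CPM with MYC (log2 fold change 0.18 ± 0.12, edgeR adjusted p = 0.237), with each MYC library above each control library. SSX2, all of whose 100-base stretches occur in SSX2B, stood at 0.446 ± 0.105 and 0.278 ± 0.110 CPM (-0.49 ± 0.30, edgeR adjusted p = 0.186), and SSX5 at 0.130 ± 0.0436 and 0.145 ± 0.0613 CPM. A row whose identifier was not matched to a symbol lists a transcript of SSX2B and held 79.0, 94.7 and 217 counts in control and 27.2, 206.5 and 102 with MYC (-0.01 on the log2 scale, edgeR adjusted p = 0.982). SSX7 had at most 4 counts.

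CTAG1B and CTAG2 had the opposite direction to most of the called members. CTAG1B, which encodes NY-ESO-1, stood at 114, 147 and 119 CPM in the controls and 85.3, 57.3 and 56.4 CPM with MYC, a 1.92-fold fall with no overlap (log2 fold change -0.94 ± 0.16, edgeR adjusted p = 0.00122). CTAG2, which encodes LAGE-1, stood at 123, 139 and 126 CPM against 76.7, 57.8 and 37.7 CPM, a 2.27-fold fall with no overlap (-1.18 ± 0.21, edgeR adjusted p = 0.00134). The family sum went from 563 ± 30.7 to 273 ± 67.9 TPM. Both genes carry the highest GC content of the tested members, 64.9% and 64.8%, and the 422 genes within 1 point of CTAG1B had a median log2 fold change of -1.40. With the GC offset the direction turned, to 0.45 ± 0.10 for CTAG1B (adjusted p = 0.00444; 1.12e-07 to 0.022 over its alternatives that filter on expression, with their differing directions) and to 0.18 ± 0.10 for CTAG2 (adjusted p = 0.146; 3.60e-05 to 0.749). Their direction with MYC therefore depends on how GC content is treated.

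Reads of the CTAG genes are also shared, 84.9% of the 100-base stretches of CTAG1B with CTAG1A or CTAG2 and 24.5% of those of CTAG2 with the CTAG1 copies.

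**Figure D5:**
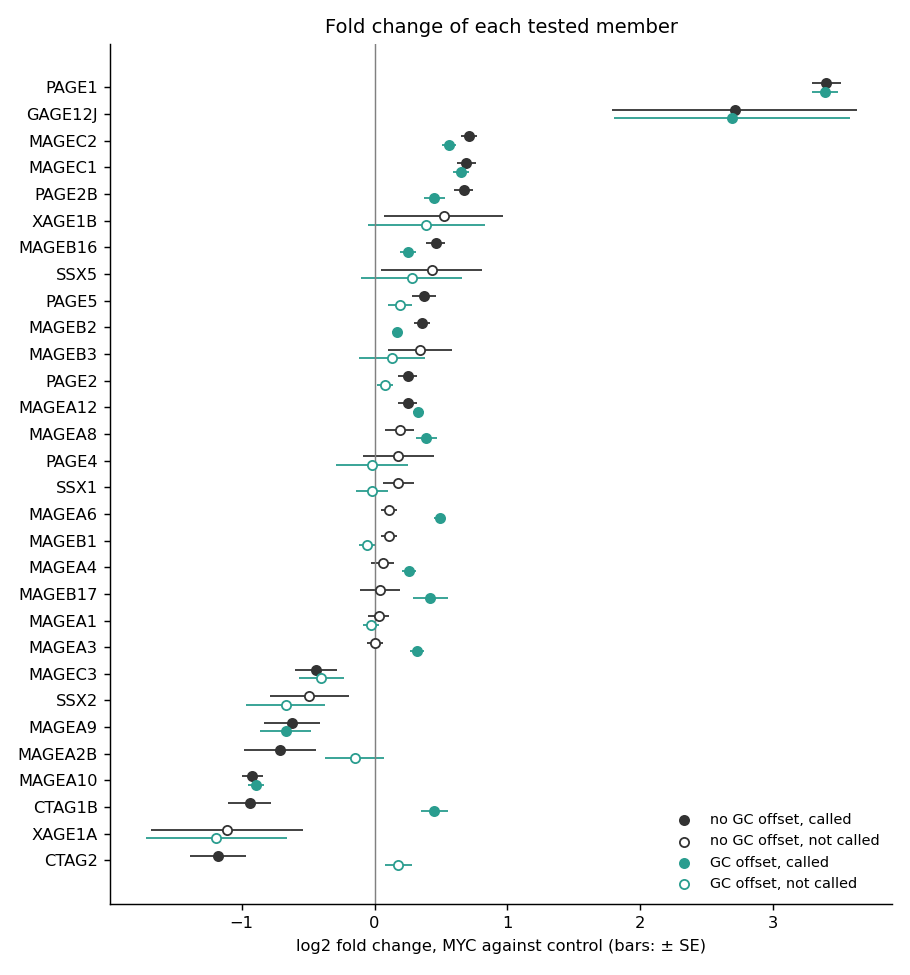
log2 fold change of MYC against control (± SE) of the 30 tested members without (dark) and with (green) the GC offset, filled where called. PAGE1, GAGE12J, MAGEC1, MAGEC2 and PAGE2B stay above 0 and called in both, MAGEA9 and MAGEA10 stay below 0 and called, and CTAG1B and CTAG2 cross 0.

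Genes around the families were read from lists by counts. Of 41 tested cancer-testis genes of other families, 17 were higher (41.5%) and 11 lower (26.8%), where 28.8% and 32.1% of all genes tested were, and 15 and 14 with the GC offset (36.6% and 34.1%, against 29.6% and 28.9% of all genes), with a median log2 fold change of 0.108. Those that rose included IL13RA2, a decoy receptor for IL13, by 3.82-fold (3.62 ± 0.4 to 13.8 ± 0.912 CPM), PRAME, an antigen that serves a ubiquitin ligase, by 1.76-fold, PASD1 by 1.74-fold, the mitotic kinase TTK by 1.71-fold and the testis lactate dehydrogenase LDHC by 1.61-fold, and CT83 fell 1.51-fold (edgeR adjusted p from 3.51e-06 to 0.000227, the same directions with the GC offset). The MAGE genes of somatic tissues, which are expressed widely and are not cancer-testis antigens, went down or were not called. Of 7 tested, MAGED2 fell 1.75-fold, MAGEF1 1.56-fold, MAGEH1 1.39-fold, NSMCE3 1.38-fold and MAGED1 1.25-fold (edgeR adjusted p from 3.64e-05 to 0.00443), and NDN at -0.17 and TRO at -0.04 did not pass. These 5 were lower with the GC offset too.

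Of 27 tested partners and targets of MAGE proteins, 13 were higher and 7 lower (48.1% and 25.9%, against 28.8% and 32.1% of all genes tested). The counts were, with the GC offset, 11 and 10 (40.7% and 37.0%, against 29.6% and 28.9%). HSPA8, a chaperone of the heat shock 70 family, rose 3.11-fold, from 736 ± 22.2 to 2288 ± 93.4 CPM, PRKAA1, the AMPK subunit that MAGEA3 and MAGEA6 direct to degradation through TRIM28, rose 1.47-fold (edgeR adjusted p = 6.47e-07 and 0.000158). The ligase adaptor KLHL22 fell 3.39-fold, the ligase TRIM8 2.50-fold and WASHC1, of the WASH complex on endosomes, 2.28-fold (edgeR adjusted p from 1.77e-05 to 0.000150). These falls were, with the GC offset, 2.44-fold, 1.32-fold and 1.3-fold, still called. The rises of HSPA8 and PRKAA1 were then 2.77-fold and 1.24-fold, also called. TRIM28 stood at 560 ± 26.9 and 397 ± 84.5 CPM (-0.50 ± 0.14, edgeR adjusted p = 0.0125), and turned to 0.18 with the GC offset (adjusted p = 0.0365). Of 45 tested regulators of cancer-testis gene silencing, 21 were higher and 9 lower (46.7% and 20.0%, against 28.8% and 32.1% of all genes tested). With the GC offset 25 were higher and 10 lower (55.6% and 22.2%, against 29.6% and 28.9%). TET1, which oxidises methylated cytosine, rose 2.66-fold, the histone demethylase KDM1A 1.70-fold, the heterochromatin protein CBX3 1.74-fold and the deacetylase HDAC1 1.45-fold, while MBD3, of the NuRD complex, fell 5.67-fold and TET3 1.87-fold (edgeR adjusted p from 1.08e-05 to 5.85e-05). All 6 kept their direction and call with the GC offset, but the falls shrank to 2.10-fold for MBD3 and 1.36-fold for TET3. The rises shrank as well, to 2.23-fold for TET1, 1.51-fold for KDM1A, 1.46-fold for CBX3 and 1.42-fold for HDAC1. DNMT1, the maintenance DNA methyltransferase, did not pass the test without the GC offset, at 465 ± 13.0 and 509 ± 29.5 CPM (0.13, edgeR adjusted p = 0.102), and was called higher with it (0.21). Of 21 tested ETS and SP factors, 6 were higher and 7 lower (28.6% and 33.3%, against 28.8% and 32.1% of all genes tested). Among them ELF1 rose 1.74-fold, while SP2 fell 2.64-fold and ETV4 1.96-fold (edgeR adjusted p from 2.35e-05 to 7.75e-05). Of these factors, with the GC offset, 4 were higher and 12 lower (19.0% and 57.1%, against 29.6% and 28.9% of all genes). The fall of ETV4 then shrank to 1.11-fold and that of SP2 to 2.07-fold.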

How the data were processed

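Poly-A RNA of 6 U266 samples (3 control, 3 MYC) was sequenced. The deposited gene tables are results of the read-counting program RSEM and hold, per the file headers, expected counts, TPM and effective lengths. The submitters' processing notes name cutadapt, TopHat2 and GRCh37. How reads were counted, and whether by strand, is not given in the sources used here, so reads of overlapping antisense genes cannot be told apart. Identifiers were matched to symbols for 39538 of 57820 rows, which hold 98.0% of counts. The authors' expected counts were rounded and put through edgeR 4.0.16 under R 4.3.3 (filterByExpr with its default minimum count of 10, TMM factors, quasi-likelihood F test on group alone, Benjamini-Hochberg, threshold 0.05). The SE is the log2 fold change divided by the root of F. CPM uses TMM-scaled library sizes. The authors' deposited TPM values served levels between genes.

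For the GC offset, each library's log2 CPM was smoothed over transcript GC (GENCODE 29) by loess with a span of 0.4, using the 17202 tested genes that have a value. TMM factors were then taken again on the corrected counts. A first form of the offset kept the original factors, and the change was made after its result was seen, so both are given. Alternatives used DESeq2 1.42.0 and limma 3.58.1. Read sharing is the share of 100-base stretches of a gene's transcripts that occur in transcripts of other genes, on either strand. With stretches of 50 bases it was greater for several members. It was then 56.5% for MAGEA3, 38.6% for PAGE2, 52.3% for PAGE2B and 43.1% for CTAG2, while PAGE1 stayed at 0%. In simulated counts for the MYC against control comparison (17679 genes), the test recovered 64.2% of changes of 1.5-fold, 77.6% of 2-fold and 95.5% of 4-fold, with 9 false calls of 167. The simulated counts changed only a small part of the genes, whereas 60.8% were called in the real libraries. They took each gene's spread from the trend over expression and held no trend with GC. These rates therefore do not give the performance of the test on the real libraries. No batch is named in the labels. Within groups, counts of libraries differed by 7.78 to 36.6 times what sampling alone gives (chi-square over its degrees of freedom), so no pair of libraries agreed within sampling noise.

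Members and lists were chosen with earlier results of these data known. All members could be named. From each list up to 6 called genes by adjusted p, the 3 most abundant and all somatic MAGE genes could be named, and 2 listed names that are not gene symbols were dropped after the tables were read. Of the 84 other cancer-testis genes listed, 68 were matched.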

Additional observations from a re-analysis of the deposited data

How the results depend on the processing

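Of the 16 called members, 5 kept their call and direction under all alternatives in which they had a value, namely MAGEA10, MAGEC1, MAGEC2, PAGE1 and PAGE2B. The count of members called lower, 6, went to 2 with the GC offset and to 3 with DESeq2. It ranged from 3 to 6 when 1 library was left out, with 3 without control library 2 or 3. The count called higher, 10, went to 14 with the GC offset and ranged from 8 to 12 when 1 library was left out. CTAG1B turned to 0.45 with the GC offset and to 0.44 with the GC offset and the replicate block, and CTAG2 to 0.18 and 0.17. The GC offset with the original TMM factors was the first form run, and taking the factors again was chosen after seeing its result. That first form, listed as an alternative after seeing the data, shifted the median log2 fold change of all genes by -0.124. It called 3417 genes higher and 7028 lower (32.7% of calls higher), against 5085 and 5671 (47.3%). With it 10 members were higher and 6 lower, CTAG1B was at 0.31 and CTAG2 at 0.05, PAGE2 turned to -0.06, MAGEB1 to -0.20 and SSX2IP to -0.24, and MAGEB2 (0.04), MAGEB16 (0.12) and PAGE5 (0.05) were not called. Without the expression filter 12 members were higher and 7 lower. There edgeR's median prior degrees of freedom was infinite, against 4.41, so each gene's own spread had no weight, and its small p-values, such as 1.66e-26 for XAGE1A, are not used. Same-numbered samples correlated at -0.0472, 0.0779 and 0.110 in their deviations, and differently numbered ones at -0.164 to 0.103. With 3 libraries per group these values cannot decide whether the numbers pair the samples. The replicate block gave 10 members higher and 6 lower, with XAGE1A called (-1.57) and MAGEA2B not (-0.74). Members under about 1 CPM are limited by depth, most of all in MYC library 1.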

Other observations

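Germ cell genes outside the antigen families were few and did not move together. Of the 23 listed, 5 passed the filter on low counts, of which 2 rose and 2 fell. That is 40.0% each, where 28.8% of all genes tested were higher and 32.1% lower, and 5 genes are too few to compare these shares. MAEL, a factor of the piRNA pathway, fell 5.45-fold, from 1.81 ± 0.130 to 0.320 ± 0.0519 CPM (SD, n = 3, log2 fold change -2.45 ± 0.17, edgeR adjusted p = 1.08e-05), and TDRD5, of the same pathway, stood at 30.1 ± 1.6 and 25.95 ± 0.504 CPM (edgeR adjusted p = 0.0186). SOHLH2, a transcription factor of early germ cells, rose 1.55-fold, from 23.0 ± 0.365 to 35.8 ± 0.284 CPM (edgeR adjusted p = 3.38e-05). PIWIL4, also of the piRNA pathway, was the other riser, at 0, 3 and 0 counts in the controls and 10, 51 and 16 with MYC (edgeR adjusted p = 0.000395), too few control reads for a fold. The directions were the same with the GC offset.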
